A study of Mus musculus with 8 samples.

Results

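The junctions between the cells of the mouse cornea were followed through 32 genes: 17 claudins, 3 genes of the MARVEL family (Ocln, Marveld2, Marveld3), 4 genes for scaffold and adhesion proteins of the tight junction (Tjp1, Tjp3, Cgn, F11r) and 8 connexins. The genes were taken by name from a table of 54532 genes, and all 32 were found in it. Whole naive corneas of 2 untreated inbred strains, BALB/cN and C57BL/6N, were compared, with 4 corneas from male mice of each strain. Neither strain carries an engineered allele. The ages of the sequenced mice, and whether each cornea came from a separate mouse, are not given in the sources used here, so that the p-values measure the spread between these corneas. The values are rlog values, a regularized logarithm on the log2 scale that is already scaled for library size. An rlog value is drawn towards the mean of its gene where reads are few, and differences of weakly expressed genes are therefore smaller than the change in reads. Read counts are not part of the table, and the depth of each cornea was not recovered here.

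Of the 32 genes, 29 averaged 0 or more over the 8 corneas and were compared between the strains, together with all 25402 genes that passed this filter. Cldn6, Cldn14 and Cldn18 fell below it. A gene is said to be called, or to have risen or fallen, where its adjusted p-value from limma was 0.01 or less. A positive difference means a higher value in BALB/cN throughout.

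Tight junctions seal the space between epithelial cells. Claudins span the membrane and set how tight the seal is and which ions cross it, occludin and its MARVEL relatives join them, and scaffold proteins such as Tjp1 and cingulin tie the complex to the actin cytoskeleton. In the cornea the tight junctions of the superficial epithelial cells keep tears and microbes out, and those of the endothelium on the inner face are leaky and let nutrients in. Gap junctions are channels of connexins that pass ions and small molecules from cell to cell, and they couple cells of the basal epithelium, the stromal keratocytes and the endothelium.

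Tight junction transcripts differed between the strains in both directions. Cldn7 rose in BALB/cN by 0.37, Ocln fell by 0.57 and Tjp1 fell by 0.31 on the rlog scale. All 3 calls depended on the processing. They were lost after median centring, with an empirical null (a null spread taken from all genes tested) and with lens markers as a covariate. No connexin was called. These 3 genes were 10.3% of the 29 tested, where 5.74% of all genes tested were called, 2.83% higher and 2.91% lower in BALB/cN. All 4 corneas of one strain lay above all 4 of the other in 7 of the 29 genes (24.1%), where 18.3% of all genes tested had such non-overlapping corneas. An unadjusted p under 0.05 was found for 10 of the 29 (34.5%), where 23.7% of all genes tested had one. Of the 29 differences 13 were above 0 and 16 below, with a median of -0.038, where the median over all genes tested was 0.008.

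For each called gene, 250 bases that lead up to a RefSeq transcript start are shown, since transcription of these genes is set in part by their promoters. The build is GRCm38.p6, whose sequence is that of a C57BL/6 mouse, so that BALB/cN variants are not shown, and they are written in the direction of the gene. The Cldn7 stretch is chr11:69964529-69964778 on the plus strand, the Ocln stretch chr13:100552719-100552968 on the minus strand, and the Tjp1 stretch chr7:65371245-65371494 on the minus strand. Of the 32 genes 27 had such an entry. The Tjp1 stretch lies within the gene as annotated, which has longer transcripts that start farther upstream. Cldn7 and Ocln each had a second start within the gene (69965421 and 100552498), whose stretch overlaps transcribed sequence and is not shown. Capitals mark GC boxes, found on either strand.
Cldn7: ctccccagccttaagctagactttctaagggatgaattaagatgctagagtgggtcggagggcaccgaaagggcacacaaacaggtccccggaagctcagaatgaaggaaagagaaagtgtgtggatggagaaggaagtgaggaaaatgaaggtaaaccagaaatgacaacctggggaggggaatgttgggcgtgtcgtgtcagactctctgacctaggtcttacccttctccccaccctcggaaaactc
Ocln: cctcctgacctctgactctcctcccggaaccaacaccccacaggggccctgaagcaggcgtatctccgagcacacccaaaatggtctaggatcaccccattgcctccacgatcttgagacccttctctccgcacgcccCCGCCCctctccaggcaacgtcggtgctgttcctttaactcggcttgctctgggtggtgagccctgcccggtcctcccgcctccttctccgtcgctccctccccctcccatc
Tjp1: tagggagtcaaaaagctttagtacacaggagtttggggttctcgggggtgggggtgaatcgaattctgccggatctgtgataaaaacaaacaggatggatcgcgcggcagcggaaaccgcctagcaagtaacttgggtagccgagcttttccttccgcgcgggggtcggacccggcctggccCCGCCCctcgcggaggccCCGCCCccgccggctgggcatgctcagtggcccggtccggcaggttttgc

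The motifs searched on both strands were the GC box (GGGCGG), the E-box bound by Snail-type repressors (CAGGTG), the TATA box (TATAAA) and a site of Grainyhead-like factors (AACCGGTT). The Ocln stretch held 1 GC box and the Tjp1 stretch 2, which do not overlap, and the Cldn7 stretch held none of the 4 motifs. The stretches before the second starts of Cldn7 and Ocln, not shown, held 1 GC box and 2 E-boxes each. A GC box was present in 32.7% of the 32851 promoter stretches of this length, the E-box in 17.2%, the TATA box in 12.4% and the Grainyhead-like site in 0.116%. A match describes the letters only.

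Means of the corneal epithelial markers, 16.22 to 16.46 over the 8 corneas, varied less than those of stromal, lens and pigment markers. Some epithelial markers varied more than this mean, with Krt14 between 11.11 and 11.85, Elf3 between 14.13 and 14.71 and Pax6 between 15.58 and 16.03. Krt12, the keratin of corneal epithelium, lay between 19.60 and 19.85 in all 8 corneas, and none of the 9 corneal epithelial markers was called (1 had an unadjusted p under 0.05 in limma). The mean rlog value of 9 markers of stromal keratocytes was low in BALB/cN replicate 2 and in C57BL/6N replicates 3 and 4 (10.9 to 11.5) and higher in the other 5 corneas (13.01 to 13.73). The mean of 12 lens markers was 7.03 in BALB/cN replicate 1 and 6.25 in replicate 4, against 4.41 to 4.96 in the other 6 corneas, and the mean of 7 markers of pigment cells was highest in the same 2 corneas, at 9.34 and 10.14. C57BL/6N replicate 2 stood apart in myelin transcripts. Of 7 conjunctival markers 5 were called lower in BALB/cN (71.4%) and the other 2 were separated in the higher direction. Of all genes tested 5.74% were called and 18.3% separated. Muc4, among those 5, was at a level near that of Krt12, between 19.14 and 19.95, and its source was not tested. In whole tissue, fewer cells of a type and less RNA per cell cannot be told apart.

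When each level was set against the exon length of its gene (rlog value minus the log2 of the length in kb), Cldn7 and Cldn4 were the most abundant claudins, with means over the 8 corneas of 12.13 and 11.86. Their ranges over corneas overlapped. Cldn23 (10.39) and Cldn3 (10.19) came next and overlapped with each other but not with Cldn4. Cldn10 (8.43), Cldn12 (6.97) and Cldn1 (5.32) followed in steps with no overlap between neighbours. Cldn8, Cldn15, Cldn5, Cldn11 and Cldn19 lay between 2.34 and 3.26 with overlapping ranges. Below them came Cldn2 (0.74) and Cldn9 (-0.39), and then the 3 genes that were not tested, between -3.89 and -1.74.

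The scaffold and adhesion genes were nearly as abundant per length as the leading claudins. Tjp1 (11.76), F11r (11.65) and Tjp3 (11.45) overlapped one after the other, and Cgn was at 10.02. The MARVEL genes were lower, with Marveld3 at 8.98, and with Ocln (7.85) and Marveld2 (7.83) overlapping. Among the connexins Gjb2 (10.77) and Gja1 (10.42) led without overlap, then Gjb5 (7.71), Gjb6 (5.61) and Gja4 (4.78), each apart from the next. Gjc1 (1.64) and Gjb1 (0.96) overlapped, and Gja3 (0.37) was the lowest.

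**Figure D1:**
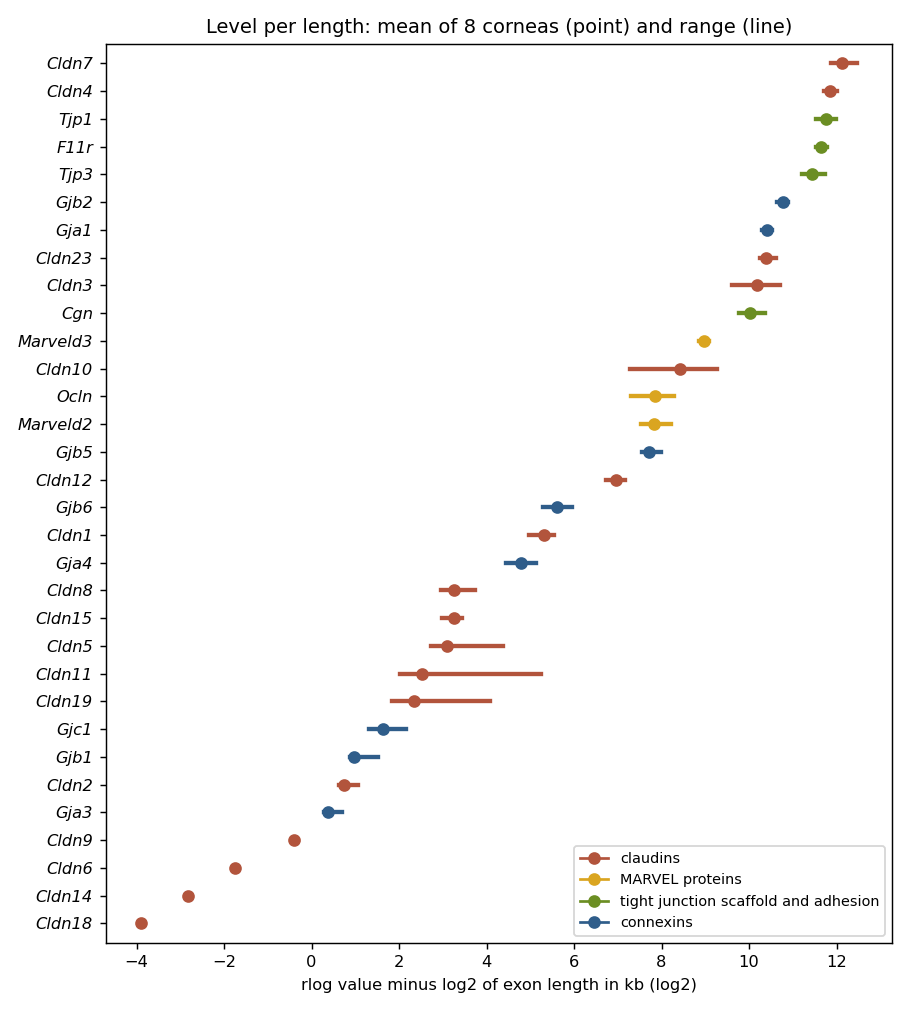
Level of each of the 32 junction genes per exon length, on the horizontal axis as the rlog value minus the log2 of the exon length in kb. The point is the mean of 8 corneas, the line runs from the lowest to the highest cornea, and colours mark the 4 families. Cldn7, Cldn4, Tjp1, F11r and Tjp3 lead, and Cldn10, Cldn11, Cldn19 and Cldn5 spread most between corneas.

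Claudins were the largest family, and 1 of the 14 tested was called (7.14%), where 5.74% of all genes tested were. Cldn7, a claudin of epithelia that also sits on the lateral membrane below the tight junction, spans 69964779 to 69967885 on the plus strand of chromosome 11 (GRCm38). Its rlog values were 13.23, 13.20, 13.42 and 13.25 in the BALB/cN corneas, replicates 1 to 4, and 12.83, 12.84, 12.94 and 12.99 in the C57BL/6N corneas. The lowest BALB/cN cornea lay above the highest C57BL/6N cornea. BALB/cN was thus higher by 0.37 (standard error 0.0624, limma adjusted p = 0.00409), a ratio of 1.30 on the rlog scale, and the exact two-sided permutation test gave p = 0.0286, the smallest that 4 against 4 corneas allow. The call was lost when BALB/cN replicate 1 or 4 or C57BL/6N replicate 1, 2 or 3 was left out (limma adjusted p 0.0109 to 0.0141), with the difference still at 0.33 or more.

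Cldn3, a sealing claudin, had the largest difference downward among the claudins after Cldn11. It was at 9.95, 10.11, 10.64 and 10.14 in BALB/cN and at 10.82, 10.62, 11.04 and 10.88 in C57BL/6N. BALB/cN replicate 3 reached the lowest C57BL/6N cornea, so the strains overlapped, and the difference of -0.63 (standard error 0.144) was not called (limma adjusted p = 0.0208). Without BALB/cN replicate 3 it was -0.77 and passed (limma adjusted p = 0.00244). Cldn4, its close relative 39.3 kb away on chromosome 5, differed by -0.10 (interval -0.25 to 0.06, limma adjusted p = 0.454).

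Cldn1, Cldn8 and Cldn9 were separated without being called. Cldn1, which seals the barrier of skin, was at 7.83, 7.72, 7.75 and 7.59 in BALB/cN and at 7.57, 7.56, 7.48 and 7.25 in C57BL/6N, a difference of 0.26 (standard error 0.0939, limma adjusted p = 0.127). Cldn8, known from the distal kidney tubule, was at 4.44, 4.33, 4.24 and 4.18 in BALB/cN and at 4.79, 4.50, 4.98 and 4.52 in C57BL/6N, a difference of -0.40 (standard error 0.12, limma adjusted p = 0.0625). In both genes the strains came within 0.1 of each other. Cldn9 was at 0.12 in 6 corneas and at 0.21 and 0.20 in C57BL/6N replicates 2 and 4, so its separation rests on digits beyond those printed.

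Cldn12, Cldn23 and Cldn15 were neither called nor separated, though the interval of Cldn12, 0.01 to 0.37, lay above 0. Cldn12 was between 9.08 and 9.25 in BALB/cN and between 8.82 and 9.14 in C57BL/6N (difference 0.19, limma adjusted p = 0.186), Cldn23 between 11.15 and 11.27 and between 11.17 and 11.51 (difference -0.15, limma adjusted p = 0.286), and Cldn15, a claudin that forms cation pores, between 4.27 and 4.45 and between 4.06 and 4.54 (difference 0.08, limma adjusted p = 0.7). Cldn2, the other pore-forming claudin of leaky epithelia, lay at 2.36 in 5 corneas and reached 2.74 and 2.80 in BALB/cN replicates 1 and 4 and 2.49 in C57BL/6N replicate 1 (difference 0.17, limma adjusted p = 0.367). Of the genes not tested, Cldn6, a claudin of embryonic epithelia, lay at -0.97 in 7 corneas and at -0.89 in C57BL/6N replicate 4. Cldn14, known from the inner ear and kidney, and Cldn18, known from lung and stomach, lay at -1.74 in 7 corneas each and at -1.72 in the other one, C57BL/6N replicate 2 for Cldn14 and BALB/cN replicate 1 for Cldn18.

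The MARVEL genes included the called member with the largest difference. Ocln encodes occludin, the first membrane protein of the tight junction to be described, and spans 100496507 to 100552718 on the minus strand of chromosome 13. It was at 9.58, 9.84, 9.76 and 9.39 in BALB/cN and at 10.11, 10.05, 10.36 and 10.34 in C57BL/6N. All BALB/cN corneas lay below all C57BL/6N corneas. They differed by -0.57 (standard error 0.111, limma adjusted p = 0.00946), so that C57BL/6N was higher by a ratio of 1.49 on the rlog scale, with p = 0.0286 in the exact permutation test. The call lay close to the threshold and held without BALB/cN replicate 2 (limma adjusted p = 0.00921), but was lost when any of the other 7 corneas was left out (0.0116 to 0.035), and the difference stayed between -0.64 and -0.49.

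Marveld2 encodes tricellulin, which closes the corners where cells meet, and lies 43.2 kb from Ocln with 0 protein-coding genes between them. It was at 9.39, 9.54, 9.42 and 9.28 in BALB/cN and at 9.62, 9.58, 9.98 and 9.92 in C57BL/6N. Its corneas were separated in the same direction as those of Ocln. The difference of -0.37 (standard error 0.103) was not called (limma adjusted p = 0.0502). Marveld3, on chromosome 8, was between 10.67 and 10.80 in BALB/cN and between 10.57 and 10.72 in C57BL/6N, a difference of 0.12 (limma adjusted p = 0.269).

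C57BL/6N replicates 3 and 4, the highest corneas in Ocln and Marveld2, were also the lowest in stromal transcripts. With the mean of the stromal markers as a covariate the difference of Ocln was -0.50 (limma adjusted p = 0.000523) and that of Marveld2 was -0.29 (0.00348). Without the 3 corneas low in stromal transcripts they were -0.50 (0.0412) and -0.24 (0.0895).

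Differences of the 4 scaffold and adhesion genes were all below 0, with a median of -0.214. Of the 4, 1 was called (25.0%), where 5.74% of all genes tested were. Tjp1 encodes the zonula occludens scaffold that binds claudins, occludin and actin, and spans 65296165 to 65527781 on the minus strand of chromosome 7. Its values were 14.58, 14.62, 14.56 and 14.51 in BALB/cN and 14.85, 14.83, 14.91 and 14.94 in C57BL/6N. The corneas of each strain lay close together and the strains did not overlap. The means differed by -0.31 (standard error 0.0438, limma adjusted p = 0.00148), a ratio of 1.24 in favour of C57BL/6N, with p = 0.0286 in the exact permutation test. It was called with each of the 8 corneas left out in turn (limma adjusted p 0.00328 to 0.00742). The call was lost after median centring (0.0417), with the lens markers as a covariate (0.0105) and with an empirical null (0.469), as were those of Cldn7 and Ocln.

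Cgn, which encodes cingulin, a link between the junction and the cytoskeleton, was at 12.48, 12.60, 12.51 and 12.37 in BALB/cN and at 12.60, 12.64, 12.95 and 12.77 in C57BL/6N. The strains met at 12.60, and the difference of -0.25 was not called (limma adjusted p = 0.0957). Tjp3, another zonula occludens scaffold, was between 13.09 and 13.37 in BALB/cN and between 13.27 and 13.62 in C57BL/6N (difference -0.18, limma adjusted p = 0.28). F11r, the junctional adhesion molecule, was between 12.97 and 13.14 and between 12.96 and 13.21 (difference -0.04, interval -0.18 to 0.11, limma adjusted p = 0.773), and its sign turned with quantile normalization.

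**Figure D2:**
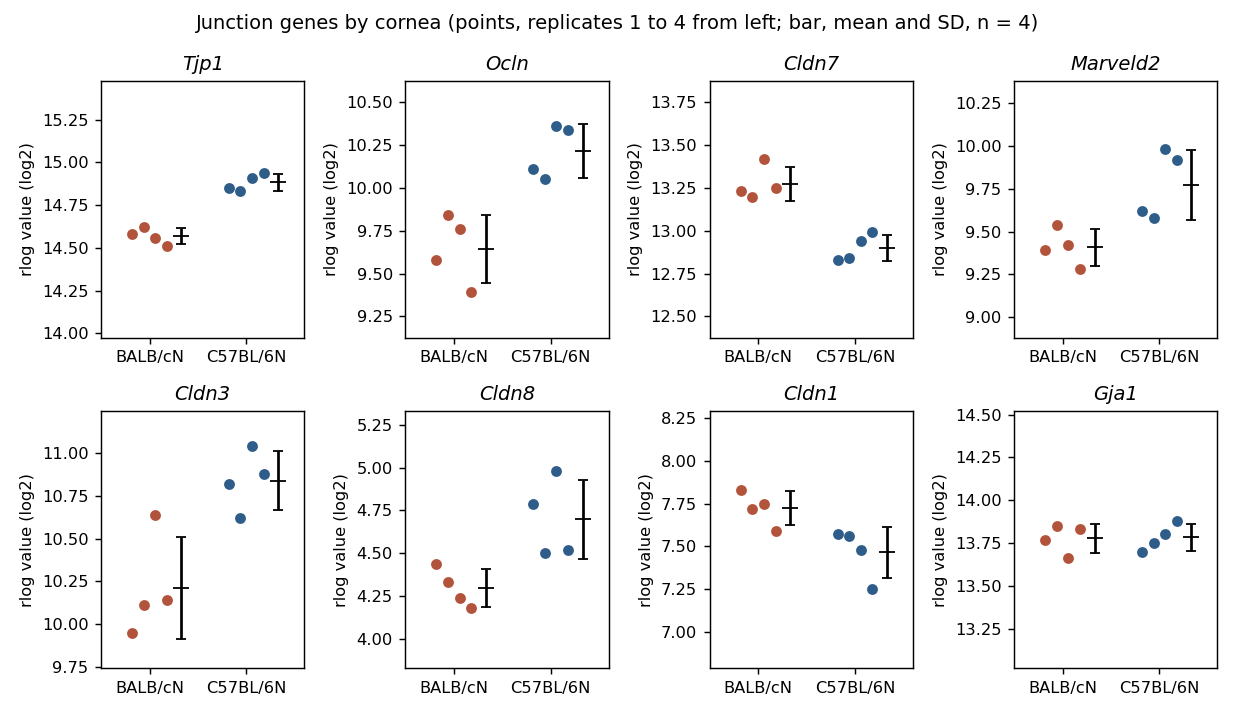
The rlog values (log2 scale, vertical axis) of 8 junction genes in 4 BALB/cN (red) and 4 C57BL/6N (blue) corneas, one point per cornea, with the mean and SD as bars; every panel spans the same height in rlog units. Tjp1, Ocln, Marveld2 and Cldn8 sit lower and Cldn7 and Cldn1 higher in BALB/cN without overlap, Cldn3 overlaps through BALB/cN replicate 3, and Gja1 lies between 13.66 and 13.88 in both strains.

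Conjunctival markers moved with the strain as Cldn7, Ocln and Tjp1 did, in both directions. Their differences ran from -2.51 for Krt13, a keratin of conjunctival epithelium, to 2.19 for Muc5ac, a mucin of goblet cells, and the mean of the 7 was between 8.83 and 9.25 in BALB/cN and between 9.42 and 9.67 in C57BL/6N. The part of the conjunctiva in these results was not tested. Without the 2 BALB/cN corneas high in lens and pigment transcripts none of the 3 genes was called, at differences of 0.41 for Cldn7, -0.42 for Ocln and -0.29 for Tjp1 (limma adjusted p 0.0445, 0.101 and 0.0334), with 2 corneas fewer in the fit.

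The connexins showed no strain difference that passed the test in limma. None of the 8 was called or separated, 1 had an unadjusted p under 0.05, and the differences ran from -0.33 to 0.17 with a median of 0.0. Of all genes tested 5.74% were called, 18.3% were separated and 23.7% had such a p, so 8 genes do not set the connexins apart. Gja1, the connexin of basal corneal epithelium, keratocytes and endothelium, was at 13.77, 13.85, 13.66 and 13.83 in BALB/cN and at 13.70, 13.75, 13.80 and 13.88 in C57BL/6N. Its difference was -0.01 with an interval of -0.14 to 0.12, and its sign turned with quantile normalization. Gjb2, an epithelial connexin known for its part in hearing and skin, was between 11.91 and 12.16 in BALB/cN and between 11.90 and 12.12 in C57BL/6N (difference 0.01, interval -0.16 to 0.17).

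Gjb6, its partner in the inner ear and skin and 18.6 kb away on chromosome 14, had the lowest p of the family. It was at 6.86, 6.79, 6.71 and 7.08 in BALB/cN and at 7.03, 7.17, 7.17 and 7.38 in C57BL/6N. Only BALB/cN replicate 4 rose above the lowest C57BL/6N cornea, and the difference was -0.33 (interval -0.57 to -0.08, limma adjusted p = 0.0928). Gjb5, a connexin of stratified epithelia, was between 8.37 and 8.56 in BALB/cN and between 8.33 and 8.76 in C57BL/6N (difference -0.05, interval -0.26 to 0.17). Gja4, known from vascular endothelium, was between 5.40 and 5.88 and between 5.20 and 5.59 (difference 0.17, interval -0.12 to 0.45), and Gjc1, known from the heart and smooth muscle, between 3.65 and 4.47 and between 3.77 and 4.17 (difference 0.08, interval -0.30 to 0.45).

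**Figure D3:**
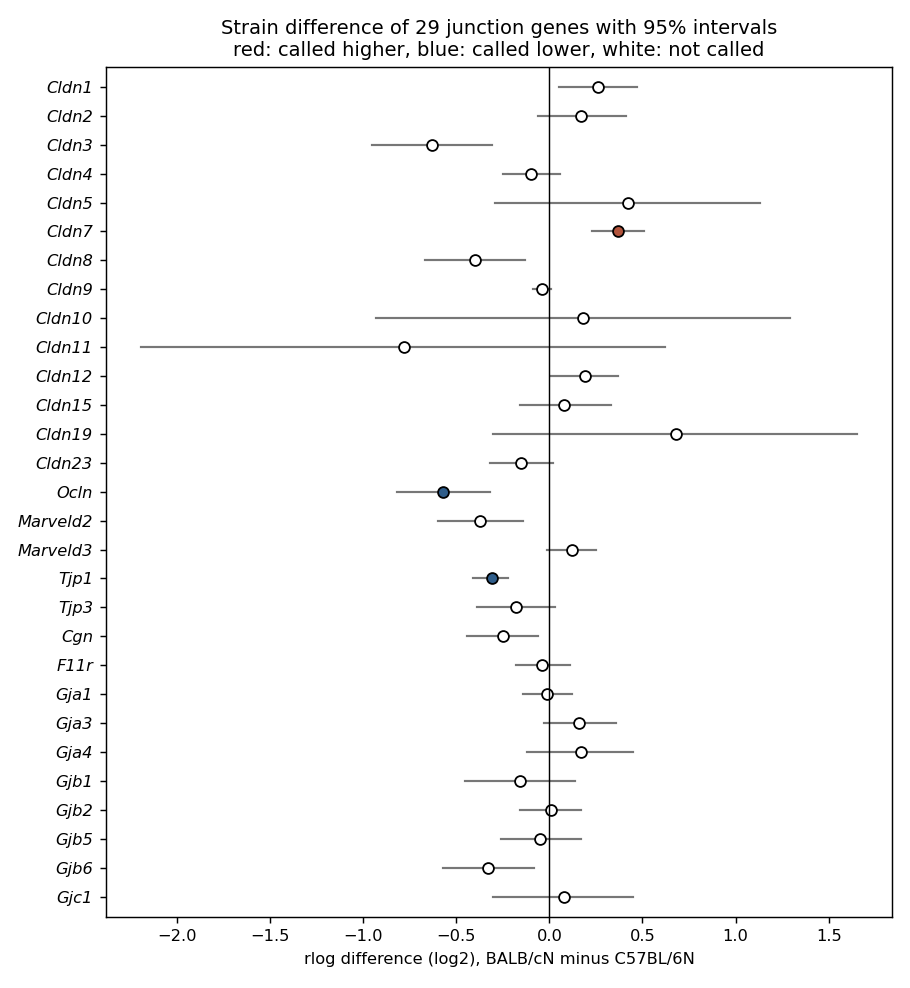
Difference in rlog value (log2 scale, horizontal axis, BALB/cN minus C57BL/6N) of the 29 junction genes tested, with 95% intervals from limma as lines. Cldn7 (0.37) is called higher and Ocln (-0.57) and Tjp1 (-0.31) lower in BALB/cN; the intervals of Cldn11, Cldn10, Cldn19 and Cldn5 are the widest.

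Several junction genes varied more between corneas of a strain than between the strains, and they did so with markers of a tissue layer or of other tissues. Cldn10, a claudin that forms ion pores, was at 10.28, 8.96, 10.20 and 10.13 in BALB/cN and at 10.62, 10.64, 8.93 and 8.65 in C57BL/6N. The 3 low corneas were those low in stromal transcripts. They were also the lowest in Slc4a11, a transporter of the corneal endothelium, which was at 12.86 in BALB/cN replicate 2 and at 12.74 and 12.63 in C57BL/6N replicates 3 and 4, against 13.37 to 13.90 in the other 5. Over the 7 endothelial markers the mean ran from 10.42 to 11.08 in BALB/cN and from 10.09 to 11.52 in C57BL/6N. The difference of Cldn10 was 0.18 (standard error 0.495, limma adjusted p = 0.867) and turned to -0.43 (limma adjusted p = 0.0111) without those 3 corneas. The part of the endothelium or stroma in this pattern was not tested.

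Cldn11, the claudin of myelin, was at 2.92, 2.93, 2.94 and 3.39 in BALB/cN and at 3.13, 6.15, 3.07 and 2.96 in C57BL/6N. Gjb1, a connexin of liver and myelinating glia, was at 2.29 in C57BL/6N replicate 2 and between 1.64 and 1.67 in the other 7 corneas. The same cornea was the highest in both genes. It was also the highest in Mag (5.54, others 2.98 to 3.25) and Mobp (9.89, others 5.97 to 6.46), which encode proteins of myelin. The mean of 10 oligodendrocyte markers was 4.77 in that cornea and between 3.72 and 3.90 in the others, and Mog, a marker of mature oligodendrocytes, was at 3.11 against 2.21 to 2.22. The difference of Cldn11 was -0.78 (limma adjusted p = 0.499) and that of Gjb1 was -0.16 (0.515). Without that cornea they were -0.0084 and 0.0038.

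Cldn19, known from the kidney and from pigmented and Schwann cells, was at 5.01, 3.95, 3.93 and 6.19 in BALB/cN and between 3.94 and 4.24 in C57BL/6N. Cldn5, the claudin of blood vessel endothelium, was at 3.86, 3.24, 3.24 and 4.87 in BALB/cN and between 3.25 and 3.58 in C57BL/6N. Both were highest in BALB/cN replicate 4 and next in replicate 1. These 2 corneas were also the highest in Tyrp1, a pigment enzyme (12.65 and 11.68, others 6.25 to 9.85), and in Cdh5, the cadherin of vascular endothelium (7.48 and 6.49, others 4.47 to 5.42). Over the 8 vascular markers the mean ran from 4.88 to 6.30 in BALB/cN and from 4.89 to 5.42 in C57BL/6N. Tie1 and Kdr of that list did not follow Cdh5. Tie1 was at 6.37 and 5.56 in BALB/cN replicates 4 and 1 and between 6.32 and 6.67 in C57BL/6N. Kdr was highest in C57BL/6N replicate 2, at 10.33, against 9.94 and 10.23 in BALB/cN replicates 4 and 1. Without the 2 corneas the difference of Cldn19 went from 0.68 (limma adjusted p = 0.392) to -0.15, and that of Cldn5 from 0.42 (0.472) to -0.14.

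Gja3, a connexin of lens fibres, was at 2.27, 1.85, 1.85 and 2.10 in BALB/cN and at 1.85 in all 4 C57BL/6N corneas. The values above 1.85 belonged to the 2 corneas high in lens markers. The crystallin Cryaa was highest in them too, at 11.09 and 9.94 against 5.52 to 7.59. The difference of Gja3 was 0.16 (limma adjusted p = 0.289) and went to -0.0019 without them. The part of lens, pigmented, vascular or nerve tissue in the values of Cldn5, Cldn11, Cldn19, Gjb1 and Gja3 was not tested.

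**Figure D4:**
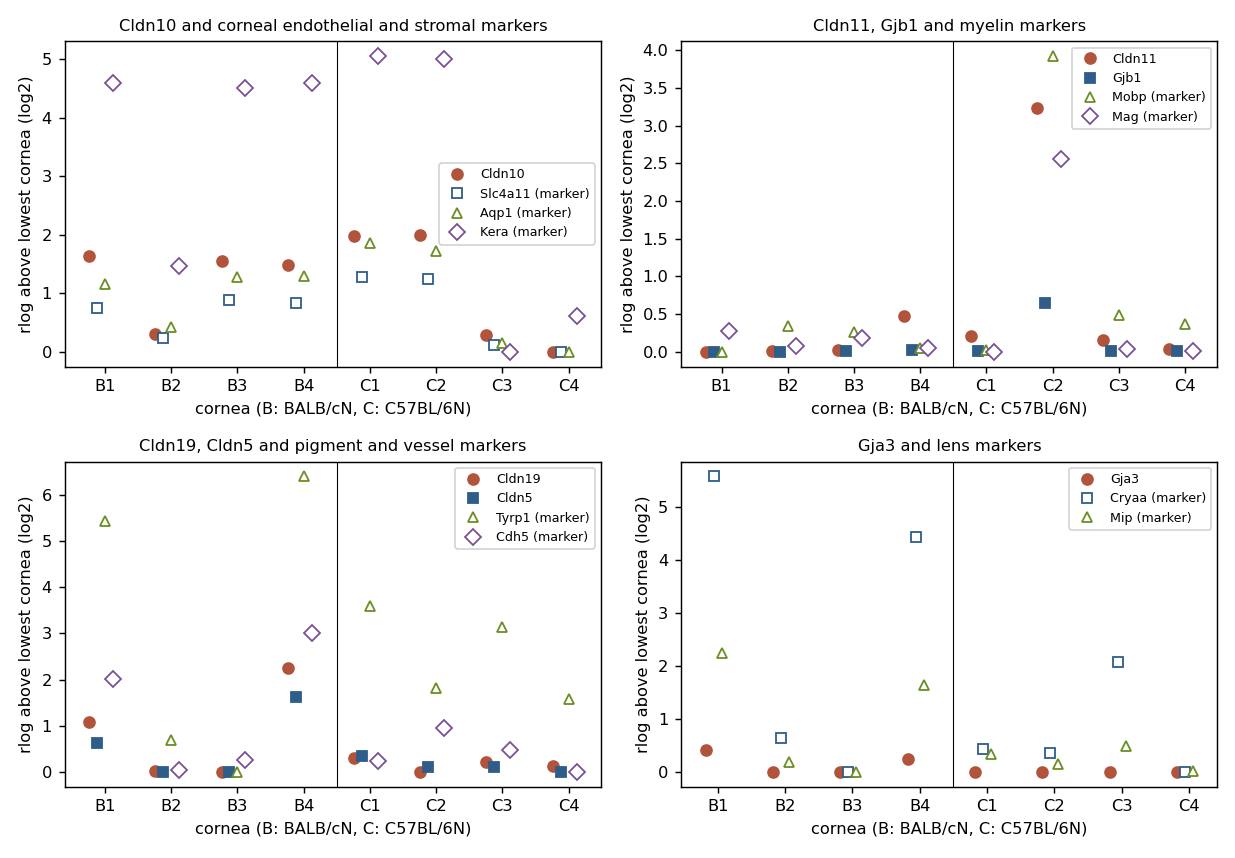
Junction genes (filled symbols) and marker genes (open symbols) in each cornea, as the rlog value above that of the lowest cornea (log2 scale, vertical axis); B1 to B4 are BALB/cN and C1 to C4 C57BL/6N replicates. Cldn10 is low in B2, C3 and C4 with Slc4a11, Aqp1 and Kera, Cldn11 and Gjb1 stand out in C2 with Mag and Mobp, and Cldn19, Cldn5 and Gja3 are highest in B1 and B4.

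Several of these genes lie in clusters on the genome. Cldn3 and Cldn4 differed by -0.63 and -0.10, and Gja3, Gjb2 and Gjb6 on chromosome 14 by 0.16, 0.01 and -0.33. Cldn8 lay 53.9 kb from Cldn17 on chromosome 16, with 0 protein-coding genes between them, and the differences were -0.40 and -0.39 (Cldn17 adjusted p = 0.0395 from limma, chosen here after its values were seen). Exons of Cldn3 and Tjp3 shared 40 bases each, and those of Cldn19 shared 90, with a gene on the opposite strand, at most 3.18% of the exon length.

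Other genes of tight and gap junctions, listed beside the 32, were called at 4 of 46 tested (8.7%), with a median difference of -0.016, and 11 (23.9%) were separated, where 5.74% of all genes tested were called and 18.3% separated. All 4 came from the list of tight junction plaque, polarity and adhesion genes, of which 31 were tested (12.9% called). Their kind is thus that of the list. None of the 6 further claudins and claudin-like genes (2 with an unadjusted p under 0.05) and none of the 10 further connexins and pannexins (0) was called in limma.

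Epcam, an adhesion protein that binds Cldn7 and keeps it from degradation, was the gene with the largest difference among the called junction genes. It was at 11.51, 11.72, 11.61 and 11.54 in BALB/cN and at 10.80, 10.88, 10.91 and 10.87 in C57BL/6N. BALB/cN was higher by 0.73 (standard error 0.0579, limma adjusted p = 3.82e-05), a ratio of 1.66, in the same direction as Cldn7.

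The other 3 fell, as Ocln and Tjp1 did. Cgnl1, the paralog of cingulin, was at 12.01, 12.01, 11.98 and 12.18 in BALB/cN and at 12.42, 12.37, 12.58 and 12.57 in C57BL/6N (difference -0.44, standard error 0.067, limma adjusted p = 0.00239). Cxadr, the coxsackievirus and adenovirus receptor of the tight junction, was at 12.04, 12.14, 12.15 and 11.98 and at 12.39, 12.35, 12.51 and 12.47 (difference -0.35, standard error 0.0589, limma adjusted p = 0.00418). Amotl2, an angiomotin that ties junctions to actin, was at 12.77, 12.76, 12.72 and 12.85 and at 13.20, 12.98, 13.06 and 13.13 (difference -0.32, standard error 0.0573, limma adjusted p = 0.00635). In none of these 4 genes did the strains overlap. None of 11 genes of the neighbouring adherens junction was called in limma (4 had an unadjusted p under 0.05). Their differences also lay mostly below 0, in 10 of the 11 with 1 above, and the median was -0.119. In 2 (18.2%) the corneas were separated, both lower in BALB/cN. Of all genes tested 5.74% were called, 18.3% separated and 23.7% had such a p.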

How the data were processed

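Strand-specific libraries were made from total RNA of 8 corneas, 4 per strain. The authors aligned reads to strain pseudo-genomes of GRCm38 with TopHat2 2.1.1, counted them per Ensembl gene with HTSeq 0.7.1 and deposited the rlog values that DESeq2 1.30 gave, in log2 units and with decimal commas. All columns were mapped by their labels, and 23218 genes were at 0 in all corneas.

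A linear model with a variance trend (lmFit and eBayes, limma 3.58.1 in R 4.3.3) was fitted to the 25402 genes whose deposited values averaged 0 or more, and p-values were adjusted over all of them by Benjamini and Hochberg. The authors recalibrated their DESeq2 p-values with fdrtool before adjusting them, a step left out of this fit. Single genes were also compared by exact two-sided permutation in scipy 1.17.1. The fit was tested on simulated data. No 2 corneas were copies of each other: at most 5.96% of the values of genes not at 0 were equal between a pair. Symbols, positions and exon lengths came from a GRCm38 annotation (31302 of 31314 genes not at 0), and promoters from RefSeq.

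The members and gene lists were chosen with earlier results of these data known. All 32 members are named, with the value of every cornea where a gene was called or separated; of the companion genes those called are named, and Cldn17 besides, and markers where they bear on a member. The oligodendrocyte list and both fits without the corneas that stood apart were added after seeing the data. Alternatives were no filter, a mean of at least log2(10), no variance trend, a robust fit, median centring, quantile normalization, an empirical null, a block for the replicate number, the stromal or lens marker mean as a covariate, each cornea left out, and an adjusted p of 0.05.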

Additional observations from a re-analysis of the deposited data

Results flagged for a closer look

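In 9 of the 64 groups of 4 corneas (32 genes in 2 strains) 1 cornea stood apart by Dixon's criterion. Its gap to the nearest other cornea, as a share of the range of the group, was above the 95% critical value. Independent normal values would give about 3.2 such groups. In several of the 9 the other 3 corneas were nearly tied at low rlog values, where a small rise passes. The 9 are therefore not read as an excess over 3.2. Cldn11 in C57BL/6N replicate 2 was at 6.15 (gap 0.948 of the range) and Gjb1 in the same cornea was at 2.29 (0.995), the cornea high in myelin transcripts. In BALB/cN replicate 4, which was high in pigment and vascular markers, Cldn11 was at 3.39 (0.96) and Gjb1 at 1.67 (0.959, over a range of 0.03). Cldn10 in BALB/cN replicate 2 was at 8.96, below the other 3 corneas of its strain (0.888), and this cornea was low in stromal transcripts. Cldn2 in C57BL/6N replicate 1 was at 2.49 where the others were at 2.36 (0.969). Cldn6 in C57BL/6N replicate 4 (0.973), Cldn14 in C57BL/6N replicate 2 (0.946) and Cldn18 in BALB/cN replicate 1 (0.977) stood apart by 0.08 or less at the bottom of the scale.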

How the results depend on the processing

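Of 605 comparisons of a member's difference with an alternative, 541 kept direction and side of the threshold, 30 lost a call, 3 gained one and 31 changed sign. Tjp1 was called in 16 of 21 alternatives, Cldn7 in 11 and Ocln in 6, and none of the 3 changed sign in any of the 21. In many of the 21 a change of sign was not possible. The filters, variance trend, robust fit, empirical null, replicate block and threshold leave each difference as it is. This holds for the 605 comparisons too, so direction is tested only by the other alternatives. No member, 1 companion gene and 958 genes in all (413 higher) were called after median centring. With the empirical null (SD 1.67) 0 members, companions and genes were called (limma, smallest adjusted p 0.0927, 1732 genes with p under 0.05). The replicate block left 0 members, 1 companion and 554 genes (274 higher, 280 lower). The numbers do not pair the corneas (correlations of same-numbered deviations -0.53 to 0.305, and 1 of 8 corneas correlated best with its own number). The stromal covariate called 4 members, 11 companions and 2419 genes (1217 higher, 1202 lower). The lens covariate called 0 members, 2 companions and 818 genes (427 and 391). At a limma adjusted p of 0.05, 4 members, 9 companions and 2842 genes (1413 and 1429) were called. With no filter, or with no variance trend, 2 members were called (1 higher and 1 lower). Without the 3 corneas low in stromal transcripts 2 members were called (1 higher and 1 lower), with 2 companions and 852 genes (411 and 441). Without the 2 BALB/cN corneas high in lens and pigment transcripts 0 members, 1 companion and 457 genes (225 and 232) were called. Leaving out each cornea gave 1 to 3 members (0 to 1 higher, 1 to 2 lower), 1 to 4 companions and 951 to 1162 genes (484 to 561 higher, 467 to 607 lower).

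Signs turned without those 2 BALB/cN corneas for Cldn2 (-0.035), Cldn5 (-0.14), Cldn10 (-0.13), Cldn19 (-0.15), F11r (0.016), Gja3 (-0.0019) and Gjc1 (-0.19). Without the 3 corneas low in stroma they turned for Cldn10 (-0.43), F11r (0.023) and Gja1 (0.028). The stromal covariate turned Cldn10 (-0.22), F11r (0.0047), Gja1 (0.017) and Gjc1 (-0.011), and the lens covariate Cldn10 (-0.053), F11r (0.0077) and Gjc1 (-0.11). Quantile normalization turned F11r (0.0068) and Gja1 (0.04), and median centring Gjb2 (-0.067). With single corneas left out the differences ran from -0.17 to 0.49 for Cldn10, -0.079 to 0.0042 for F11r, -0.035 to 0.033 for Gja1, -0.21 to 0.0038 for Gjb1, -0.037 to 0.052 for Gjb2, -0.11 to 0.034 for Gjb5 and -0.08 to 0.19 for Gjc1. Fewer corneas enter the fits that leave corneas out; the cause of the other changes was not tested. Shrinkage of rlog values limits what can be said of Cldn2, Cldn9, Gja3 and Gjb1, which lie near the bottom of the scale.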
